A study of Citrus sinensis and Citrus x aurantiifolia and Citrus x latifolia with 53 samples.

Results

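The genes described here are those whose leaf level moved in opposite directions in Mexican lime and Persian lime when irrigation was stopped. They were chosen on the leaf values themselves, and 14 of the 24533 genes in the count table qualified. For each graft combination, the response L was the log2 of the mean level under water deficit plus 1 over the mean level in controls plus 1. Levels were counts scaled to library depth (CPM), each count being divided by the total count of its library and scaled to the same total. A gene qualified when L was at least 0.4 in both combinations of one scion and at most -0.4 in both combinations of the other. It also needed a mean control level under 400 CPM and a mean L between -0.8 and 0.8, and these limits removed 0 genes. Of the members, 11 were higher under water deficit in Mexican lime and lower in Persian lime, and are called Mexican-up. The other 3 showed the reverse and are called Persian-up.

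The study compared RNA of leaves and of roots from grafted lime trees, to ask whether polyploidy of the scion or of the rootstock changes the response to lack of water. The scions were diploid Mexican lime (ML, Citrus aurantiifolia) and triploid Persian lime (PL, Citrus latifolia), each on seedlings of diploid (2x) or tetraploid (4x) Swingle citrumelo, a hybrid rootstock with Poncirus trifoliata as a parent. ML2x, ML4x, PL2x and PL4x join the scion's letters to the rootstock's ploidy. Leaves carried the scion's genotype and roots that of the citrumelo. All trees had grown for 2 years in 40 L pots in a greenhouse, and were then irrigated (Ctrl) or left without irrigation for 9 days (WD). Each combination had 3 Ctrl and 4 WD libraries in each tissue, from separate trees. PL2x is the exception, with 2 Ctrl and 3 WD leaf libraries and 3 WD root libraries, and its remaining trees were not analysed here. A Mexican and a Persian lime differ in species as well as in ploidy, and these cannot be told apart here.

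A grafted tree joins 2 genotypes: the scion forms the leaves, where stomata close and photosynthesis slows as water runs short, and the rootstock forms the roots, which sense the drying soil. Abscisic acid made under water deficit is a main signal for stomatal closure, and water, hormones and some RNAs pass through the graft union. Triploid Persian lime is a seedless lime grown from grafted trees, and tetraploid rootstocks have been studied for their effect on drought tolerance of the scion. The files give clementine-type gene identifiers without names, and 0 of the 24533 matched the sweet orange reference table used here. No role, sequence or marker gene can therefore be given, and the labelled tissues were not checked against markers. At most 2 identifiers per direction are printed for a comparison, chosen by the rules under the processing.

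Opposite responses were rare beside shared ones. L was at least 0.4 in all 4 combinations for 2739 genes and at most -0.4 in all 4 for 667 genes. In both Mexican lime combinations, L was at least 0.4 for 4260 genes and at most -0.4 for 1429. The same counts in both Persian lime combinations were 5498 and 1563. The Mexican-up pattern was met by 11 genes and the Persian-up pattern by 3. Just inside the threshold, the Mexican-up gene Ciclev10006073m.g had a smallest response of 0.41 in size and the Persian-up gene Ciclev10009961m.g one of 0.42. Just outside, Ciclev10009338m.g and Ciclev10024291m.g stopped at 0.39 each, and 19 and 14 genes of these patterns had a smallest response between 0.3 and 0.4 in size. The members therefore had more near neighbours below the threshold than there were members. The scaling also set where 0 lies. The median L of the genes tested in leaves was 0.23, 0.21, 0.21 and 0.32 in ML2x, ML4x, PL2x and PL4x with CPM by library total, and 0.05, 0.03, 0.05 and 0.09 with TMM, which evens out composition between libraries. With TMM 23 genes met the rule, 9 of them members, and L of the members kept its sign in every combination. The leaf libraries chose the members, so leaf values below are descriptions, and nothing is read from edgeR's leaf calls where they are given beside those of all genes.

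**Figure D1:**
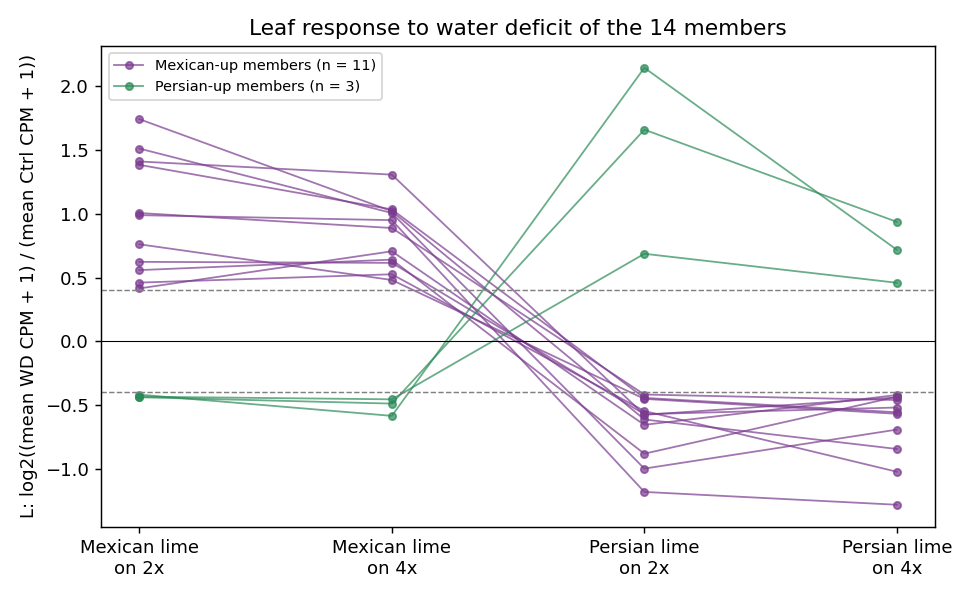
Leaf response L, the log2 of mean WD CPM plus 1 over mean Ctrl CPM plus 1, for each of the 14 members (1 line each) in the 4 graft combinations. Dashed lines mark 0.4 and -0.4, the limits that chose the members. The 11 Mexican-up lines run from above to below, and the 3 Persian-up lines from just below -0.4 in Mexican lime to between 0.46 and 2.15 in Persian lime.

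A few leaf and root libraries stood apart. Leaf libraries held 3747153 to 54838385 counts and root libraries 1118899 to 27925992. The shallowest were PL2x Ctrl 1 and ML2x WD 3 among leaves, and ML2x WD 4 among roots. To place each leaf library, its change from the Ctrl mean of its combination was regressed over genes on the mean L of the other 3 combinations, without an intercept. A slope of 1 means a change as large as theirs along their pattern. A low slope can mean a weak response or one of another pattern, and these were not told apart. The WD slopes ran from 0.107 in PL2x WD 1 and 0.30 in ML4x WD 1 to 1.49 in PL4x WD 4. Controls were instead each set against the mean of the other controls of their combination. Among them, PL4x Ctrl 1 lay farthest from 0, at -0.43, on the side away from water deficit.

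Ciclev10016655m.g, a Mexican-up gene, kept its Ctrl and WD leaf libraries apart in all 4 combinations. In ML2x its level was 2.20, 2.90 and 2.97 CPM in Ctrl and 5.04, 9.54, 8.57 and 12.1 CPM in WD. In ML4x it was 3.44, 3.35 and 4.30 CPM in Ctrl and 9.21, 6.78, 17.8 and 8.66 CPM in WD. Every WD library of Mexican lime thus stood above every control of its combination. Persian lime showed the reverse. In PL2x the level was 5.60 and 5.66 CPM in Ctrl and 3.01, 4.13 and 3.19 CPM in WD. In PL4x it was 8.51, 7.81 and 5.59 CPM in Ctrl and 4.17, 5.57, 5.32 and 5.41 CPM in WD, so that the lowest control and the highest WD library almost touched. L was 1.41 and 1.31 on Mexican lime and -0.58 and -0.44 on Persian lime, in the order 2x and 4x. The PL4x value was -0.33 without PL4x Ctrl 1 and -0.396 without PL4x Ctrl 2, each short of the rule. With 2 CPM added in place of 1, the gene also missed the rule. Persian lime controls held a higher mean level than Mexican lime controls, 6.47 against 3.20 CPM. After 9 days without water the order was inverted, 4.28 against 9.72 CPM.

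Ciclev10017105m.g followed the same course with a wider spread. Its ML2x leaves held 8.11, 4.62 and 8.38 CPM in Ctrl and 10.1, 13.6, 42.8 and 21.1 CPM in WD. Its ML4x leaves held 8.89, 11.5 and 11.3 CPM in Ctrl and 13.6, 25.9, 31.0 and 18.5 CPM in WD. No WD library of Mexican lime came down to a control of its own combination. The highest value was that of ML2x WD 3, the library with the fewest counts among WD leaves. The PL2x values were 14.9 and 19.3 CPM in Ctrl and 7.57, 12.3 and 4.29 CPM in WD. The PL4x values were 30.1, 16.6 and 16.0 CPM in Ctrl and 13.3, 6.23, 17.2 and 13.5 CPM in WD. PL2x libraries did not overlap, whereas 1 WD library of PL4x lay above 2 of its controls. L was 1.51, 1.01, -0.999 and -0.69 in ML2x, ML4x, PL2x and PL4x. Without PL4x Ctrl 1, the PL4x value became -0.35, short of the rule.

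Ciclev10021946m.g, named after its values were seen, was the other gene with no overlap in any combination. Its ML2x leaves held 25.8, 31.7 and 20.5 CPM in Ctrl and 39.2, 53.2, 110 and 75.1 CPM in WD. Its ML4x leaves held 25.7, 22.8 and 23.4 CPM in Ctrl and 25.8, 54.3, 73.2 and 47.2 CPM in WD, where ML4x WD 1 stood level with the highest control. In Persian lime its controls were far above those of Mexican lime, at 88.6 and 82.9 CPM in PL2x and 102, 80.3 and 73.5 CPM in PL4x. Its WD leaves held 69.6, 62.0 and 56.6 CPM in PL2x and 54.7, 65.0, 60.4 and 50.4 CPM in PL4x. Irrigated leaves thus held 25.0 and 85.5 CPM on average in Mexican and Persian lime, and leaves of the trees without irrigation 59.8 and 60.2 CPM.

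Both Persian-up genes named by the rule had low and scattered Persian lime controls. Ciclev10021389m.g had 0.534 and 4.88 CPM in PL2x Ctrl and 11.5, 9.73 and 11.0 CPM in PL2x WD. In PL4x it had 0.387, 8.56 and 8.79 CPM in Ctrl and 11.0, 13.2, 12.9 and 11.8 CPM in WD. All WD libraries of Persian lime lay close together, above all of their controls. In Mexican lime the level was 11.3, 14.4 and 17.9 CPM in ML2x Ctrl against 9.31, 15.8, 4.39 and 12.2 CPM in WD, which overlapped. It was 18.5, 17.0 and 13.9 CPM in ML4x Ctrl against 13.4, 7.51, 12.0 and 12.9 CPM in WD, which did not. L was -0.44, -0.49, 1.66 and 0.94 in ML2x, ML4x, PL2x and PL4x, and 0.45 in PL4x without PL4x Ctrl 1. Without ML2x WD 3, the ML2x value was -0.205, short of the rule.

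Ciclev10009961m.g had 7.21 and 12.9 CPM in PL2x Ctrl and 48.7, 49.1 and 46.1 CPM in PL2x WD. Its PL4x leaves held 4.64, 36.6 and 28.2 CPM in Ctrl and 28.0, 31.6, 49.9 and 45.3 CPM in WD. The PL2x groups stood well apart, while the PL4x groups overlapped, with PL4x Ctrl 1 far below every other library of the group. Mexican lime leaves held 37.6, 35.8 and 50.4 CPM in ML2x Ctrl and 34.9, 35.3, 17.6 and 34.8 CPM in ML2x WD. In ML4x they held 45.5, 72.1 and 30.5 CPM in Ctrl and 45.9, 23.0, 32.4 and 29.1 CPM in WD. L was -0.42, -0.59, 2.15 and 0.72, and the PL4x value was 0.25 without PL4x Ctrl 1. The ML2x value was -0.23 without ML2x WD 3. Each of these omissions left the gene short of the rule.

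**Figure D2:**
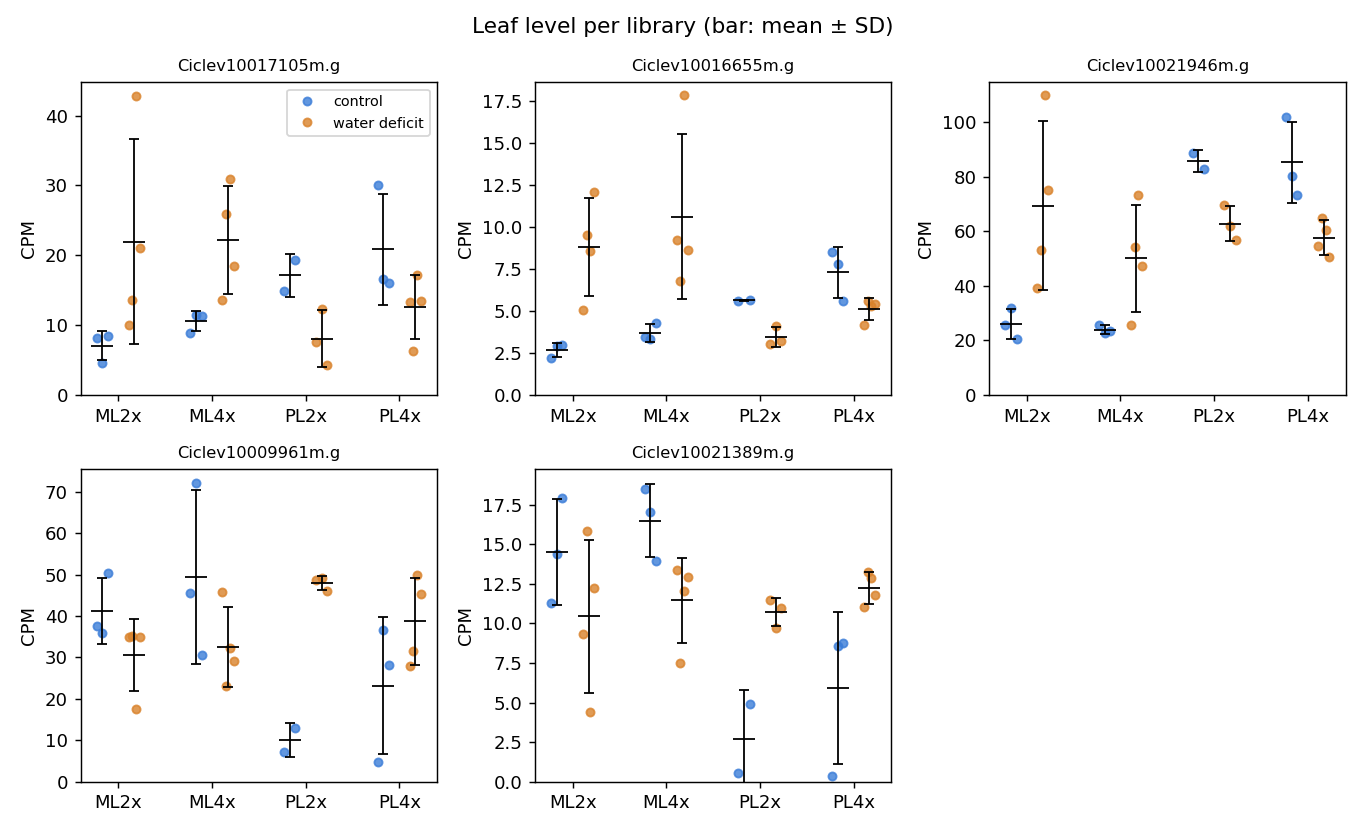
Leaf level in CPM (y axis) of 3 Mexican-up and 2 Persian-up members in every library, with Ctrl (blue) and WD (orange) side by side for each combination and bars for mean and SD (cut off at 0). In the 3 Mexican-up genes the WD points stand above Ctrl in Mexican lime and below it on average in Persian lime. In the 2 Persian-up genes a Ctrl library of PL4x lies near 0.

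Over all members, Ctrl and WD leaf libraries did not overlap in the direction of the class in all 4 combinations for 2 members, in 3 for 5, in 2 for 5 and in 1 for 2. In ML2x all WD libraries were above all controls for 9 of the 11 Mexican-up members, beside 22.9% of the 19140 genes tested in leaves. This held for 7 of the 11 in ML4x, beside 16.2% of genes. All WD libraries were below all controls for 8 of the 11 in PL2x, beside 11.9%, and for 4 of the 11 in PL4x, beside 7.32%. Of the 3 Persian-up members, 2 were lower without overlap in ML2x and 1 in ML4x, beside 12.1% and 6.48% of genes. In PL2x all 3 were higher without overlap, beside 27.4%, and in PL4x 1 was, beside 24.9%. Nothing is read from these counts, since the same libraries chose the members.

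The rule required responses of both signs in each member. In a fit of all leaf libraries with edgeR's quasi-likelihood test, 0 of the 14 were called higher and 1 lower in the mean of the 4 combinations, at an adjusted p under 0.05, beside 48.2% of genes called in either direction. Only 1 gene of the 19140, or 0.00522%, was called for a difference of response between the scions. That gene was Ciclev10016655m.g, with a fitted difference of -2.28 ± 0.32 (SE) on the log2 scale, Persian minus Mexican lime. Both counts rest on the values that chose the members, and nothing is read from them. The fitted difference of the 11 Mexican-up members ran from -3.20 to -1.28, and that of the 3 Persian-up members from 1.90 to 2.29.

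Leaf levels of the members also differed between the limes within a treatment. This is a description, since these levels make up L. The mean Ctrl leaf level was higher in Persian than in Mexican lime for 10 of the 11 Mexican-up members, beside 41.2% of genes tested, and lower for 2 of the 3 Persian-up members. edgeR called 8 Mexican-up members higher in Persian lime controls, and 1 Persian-up member higher and 2 lower. Of the 19140 genes tested it called 1183 higher and 1192 lower there, or 12.4% in either direction. Under water deficit, 9 of the 11 Mexican-up members were lower in Persian than in Mexican lime and all 3 Persian-up members were higher. The share of all genes that were lower was not counted, and their median fitted difference was 0.01 on the log2 scale. edgeR called 3 of the former lower and 1 of the latter higher. Of the 19140 genes tested it called 379 lower and 714 higher, or 5.71% in either direction. Nothing is read from these calls. Control levels enter L directly, so a high control in Persian lime and a low L there are not independent. Reads were counted on gene models of clementine type, which is neither lime, so a level difference between scions cannot be told apart from a difference in mapping. As leaves were taken whole, fewer cells of a type and less RNA per cell cannot be told apart either.

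The third Persian-up gene, Ciclev10026918m.g, named after its values were seen, shows the limit of the rule at low levels. Its level in the 14 Mexican lime leaf libraries ran from 0 to 1.53 CPM, and L of -0.43 and -0.46 there is a difference of under 1 CPM. In Persian lime it held 9.34 and 12.3 CPM in PL2x Ctrl and 15.7, 19.4 and 19.0 CPM in PL2x WD. In PL4x it held 1.35, 14.2 and 13.8 CPM in Ctrl and 13.0, 15.0, 15.3 and 11.9 CPM in WD. Without PL4x Ctrl 1 its L in PL4x was -0.02. This gene separated the scions in every library outside PL4x Ctrl 1, whatever the treatment.

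The class means of the Mexican-up members lay on the same side in all WD libraries of a scion, although single members did not. In ML2x WD 2 there was 1 member below all controls, and in PL4x WD 2 there was 1 above all controls. The mean change over the 11 members from the Ctrl mean of the combination, in log2 of CPM plus 1, was positive in all 8 Mexican lime WD libraries, from 0.24 in ML4x WD 1 to 1.28 in ML2x WD 3. It was negative in all 7 Persian lime WD libraries, from -0.98 in PL4x WD 4 to -0.41 in PL4x WD 2. ML4x WD 1, the Mexican lime WD library with the lowest slope of the whole transcriptome, was also the one where these members moved least. PL2x WD 1 did not follow that order. Its transcriptome slope of 0.107 was the lowest of all WD libraries. Yet its mean change over the Mexican-up members was -0.64, beside -0.48 and -0.85 in the other 2 WD libraries of PL2x. The mean change of the Persian-up members was also alike in these 3 libraries, at 1.59, 1.62 and 1.63. The members were chosen on group means that include these libraries.

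**Figure D3:**
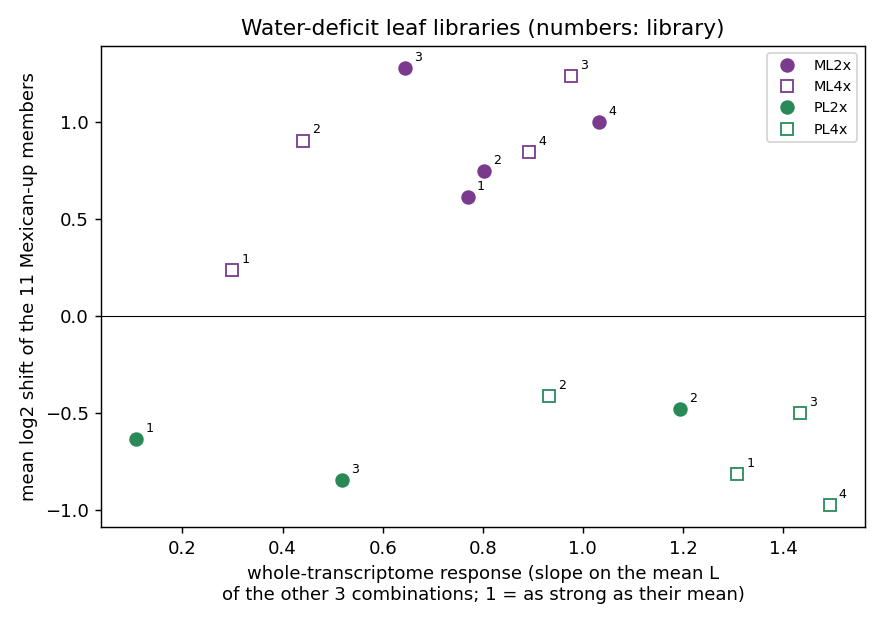
Mean change of the 11 Mexican-up members (y axis, log2 of CPM plus 1 against the Ctrl mean) against the slope of the whole transcriptome on the other 3 combinations (x axis) for the 15 WD leaf libraries. Mexican lime points (purple) lie between 0.24 and 1.28 and Persian lime points (green) between -0.98 and -0.41; filled circles are 2x and open squares 4x rootstocks, with library numbers beside them.

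A single control weighed on the set more than any WD library. In PL4x Ctrl 1 the Mexican-up members were on average 0.42 above the mean of the other 2 PL4x controls, with 9 of the 11 above both. The mean difference of the Persian-up members from the mean of these controls was -2.68, and all 3 were under both. Without PL4x Ctrl 1 the rule found 7 genes, 6 of them among the 14 members, and Ciclev10021389m.g was the only Persian-up member left. Leaving out PL4x Ctrl 2 or Ctrl 3 instead raised the count to 25 each. Without ML4x WD 1 it was 22 and without PL2x WD 2 it was 23, and across all 26 single omissions it ran from 7 to 25. Each member met the rule in 20 to 25 of these 26. Omission of PL2x Ctrl 2, from a group of 2 controls, also cost members. L in PL2x was then -0.38 for Ciclev10005251m.g and -0.06 for Ciclev10021073m.g, short of the rule. Omission of the WD library ML2x WD 3 cost members as well. Among those lost, L in ML2x was -0.205 for Ciclev10021389m.g, -0.23 for Ciclev10009961m.g and 0.27 for Ciclev10027617m.g. The 2 WD libraries of lowest slope were also left out together, a choice made after seeing the data. The rule then found 21 genes, 13 of the 14 members among them.

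**Figure D4:**
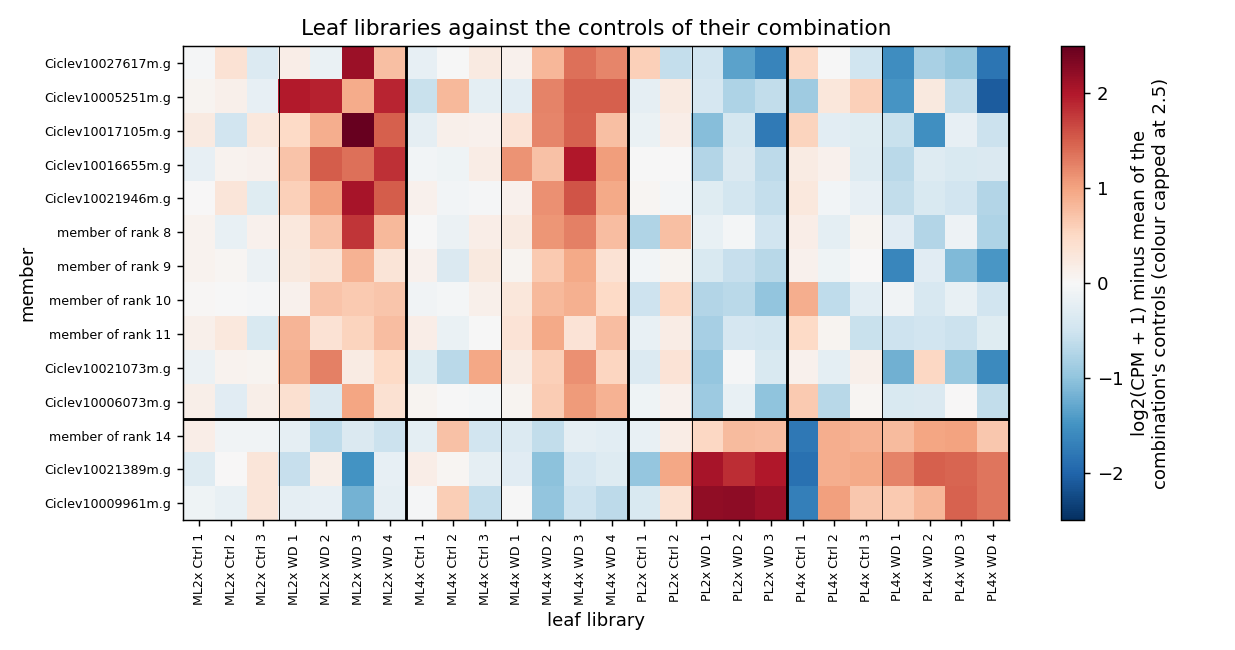
Difference of each leaf library from the Ctrl mean of its combination, in log2 of CPM plus 1 (colour, capped at 2.5), for the 14 members in rows and the 26 leaf libraries in columns. Rows are numbered by the size of the scion difference where no identifier is printed; the 11 Mexican-up rows are above the horizontal line and the 3 Persian-up rows below it. In Mexican-up rows most WD cells are red in Mexican lime and blue in Persian lime, with exceptions such as a blue cell in ML4x WD 1 and red ones in PL4x WD 2, and PL4x Ctrl 1 is dark blue in the Persian-up rows.

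The ploidy of the rootstock was also read on L. In Persian lime L was smaller on the 4x than on the 2x rootstock for all 3 Persian-up members, and 4x minus 2x was -1.43 for Ciclev10009961m.g and -0.72 for Ciclev10021389m.g. In Mexican lime the same difference was -0.17 and -0.05 for these 2 genes. Among Mexican-up members the difference between rootstocks ran from -0.72 to 0.29 in Mexican lime and from -0.48 to 0.45 in Persian lime. Both ranges include 0. The PL2x values rest on 2 controls and the PL4x values of the Persian-up members on PL4x Ctrl 1.

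Root libraries played no part in choosing the members, although they came from the same set of trees, and 13 of the 14 passed the filter on low counts there. Over the mean of the 4 combinations, 6 of the 13 changed under water deficit by edgeR's quasi-likelihood test at an adjusted p under 0.05, 3 up and 3 down. This share lies under the 58% of the 20452 root genes that were called. Of the 10 Mexican-up members tested, 2 rose and 2 fell, and of the 3 Persian-up members 1 rose and 1 fell. Neither class moved to 1 side in roots. Roots of all trees were citrumelo, whatever the scion.

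Ciclev10005251m.g, a Mexican-up gene in leaves, fell in roots. Its root level in Ctrl was 30.3, 19.1 and 59.7 CPM in ML2x, 22.9, 14.6 and 18.7 CPM in ML4x, 43.5, 52.6 and 28.9 CPM in PL2x and 25.8, 34.1 and 24.5 CPM in PL4x. In WD it was 12.1, 4.54, 1.21 and 4.47 CPM in ML2x and 34.8, 4.53, 1.87 and 5.59 CPM in ML4x. The Persian lime trees had 4.05, 17.3 and 36.2 CPM in PL2x and 2.54, 10.3, 1.71 and 1.66 CPM in PL4x. Ctrl and WD did not overlap in ML2x and PL4x, and 1 WD library each in ML4x and PL2x stayed within or above the controls. The mean change was -1.76 ± 0.41 (SE) on the log2 scale, with an adjusted p of 0.00115. In leaves of the same combinations, L of this gene was 1.74 and 1.02 on Mexican lime and -0.61 and -0.84 on Persian lime.

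Ciclev10021073m.g, the other Mexican-up gene named for a fall, went from 2.63 ± 1.27 CPM (SD, n = 12) in Ctrl to 1.33 ± 1.06 CPM (SD, n = 15) in WD roots. The values ran from 0.883 to 5.08 CPM, with a median of 2.30, in Ctrl and from 0 to 4.21 CPM, with a median of 1.22, in WD, so the treatments overlapped. Its mean change was -0.88 ± 0.33 (SE), adjusted p 0.025 by edgeR, and the call was lost without PL2x Ctrl 2 (adjusted p 0.0587) or PL4x Ctrl 3 (0.0567).

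Ciclev10027617m.g, a Mexican-up gene with a scion difference of L of -2.20 in leaves, rose in roots. The leaf value leans on ML2x WD 3: without that library the difference was -1.84 and L in ML2x was 0.27 in place of 0.99, short of the rule. Its root level in Ctrl was 2.83, 2.74 and 2.10 CPM in ML2x, 0.681, 3.70 and 2.45 CPM in ML4x, 8.42, 2.21 and 4.25 CPM in PL2x and 1.66, 3.74 and 3.37 CPM in PL4x. In WD it was 10.6, 7.09, 5.56 and 32.2 CPM in ML2x and 5.43, 11.1, 7.30 and 2.63 CPM in ML4x. Under Persian lime it was 8.40, 2.86 and 4.24 CPM in PL2x and 3.87, 4.08, 8.89 and 0.907 CPM in PL4x. All ML2x WD roots were above their controls, the highest of them in ML2x WD 4, the shallowest root library, while the PL2x treatments had nearly the same values. The mean change was 1.19 ± 0.36 (SE), adjusted p 0.00804 by edgeR. Its root response under Persian minus that under Mexican lime was -1.54 ± 0.72 (SE), with an unadjusted p of 0.0423 and an adjusted p of 1.00 by edgeR, which is not a call. The same gene in leaves held 74.9, 99.0 and 60.5 CPM in ML2x Ctrl and 85.5, 68.1, 340 and 130 CPM in ML2x WD.

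Ciclev10021389m.g, Persian-up in leaves, rose in roots from 1.64 ± 0.37 CPM (SD, n = 12) to 3.66 ± 3.37 CPM (SD, n = 15). Ctrl roots ran from 1.01 to 2.11 CPM with a median of 1.71, and WD roots from 0 to 13.0 CPM with a median of 2.74. The highest values were 9.05 and 13.0 CPM in PL4x WD, beside 2.27 and 1.58 CPM in the other 2 libraries of that group. Its mean change was 1.12 ± 0.32 (SE), adjusted p 0.00547 by edgeR. The remaining 2 called members were a Persian-up gene that fell by 0.72 on the log2 scale and a Mexican-up gene that rose by 2.00 from a mean root level of 0.265 CPM over all libraries.

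**Figure D5:**
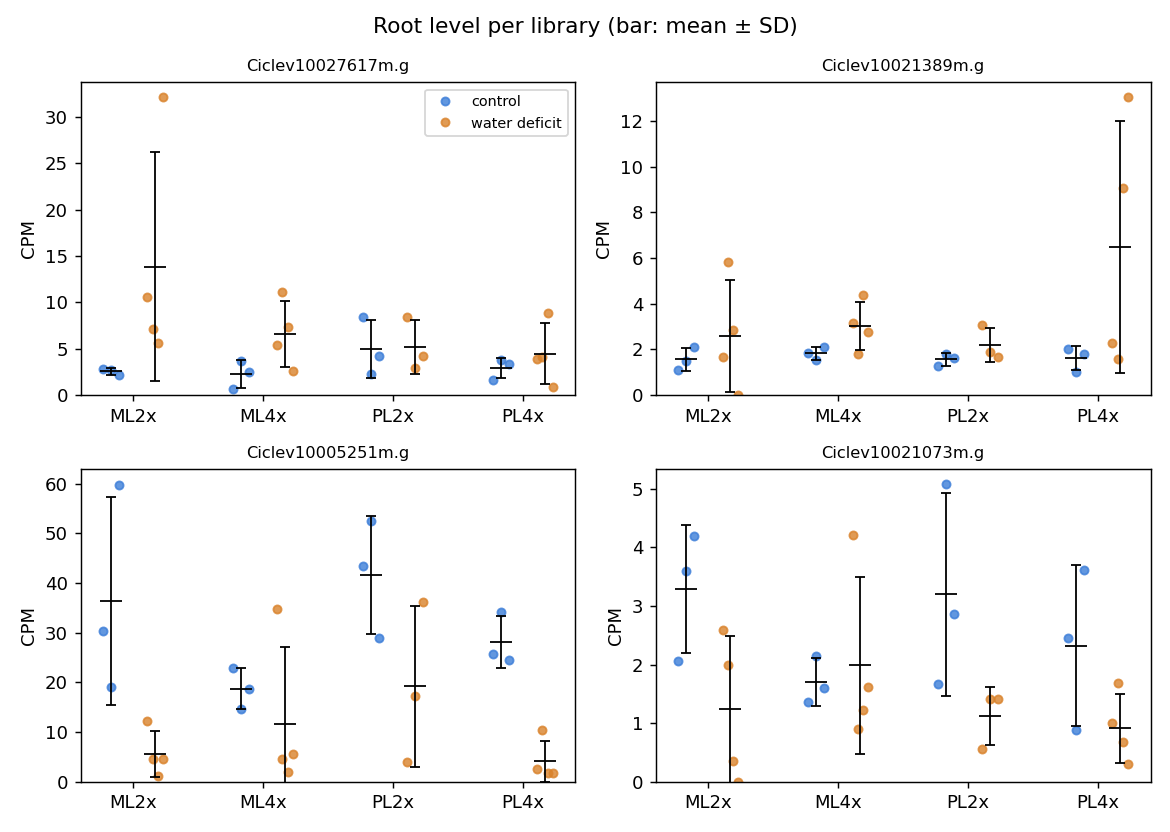
Root level in CPM (y axis) in every library of the 4 members named for roots, with Ctrl (blue) and WD (orange) for each combination and bars for mean and SD (cut off at 0). Ciclev10005251m.g is lower in most WD roots of all 4 combinations, and the rise of Ciclev10021389m.g comes mostly from 2 PL4x WD libraries at 9.05 and 13.0 CPM.

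Within single combinations few members passed the test in roots. In ML2x 2 of the 13 did, Ciclev10027617m.g up and Ciclev10005251m.g down, beside 39.4% of root genes. In ML4x 1 did, Ciclev10009961m.g down by -1.66 ± 0.35 (SE), adjusted p 0.00366 by edgeR, beside 14.4%. In PL2x 0 did, beside 3.76%, and in PL4x 2 did, Ciclev10021389m.g up and Ciclev10005251m.g down, beside 18.5%. For PL2x, 0 members had an unadjusted p under 0.05 by edgeR, beside 4391 of the 20452 root genes. There DESeq2 called 0 members, beside 724 genes up and 832 down. Limma-voom called 4, beside 3963 genes up and 4241 down. The member counts by edgeR moved with single libraries. The ML2x count was 0 without ML2x Ctrl 3 and 1 without ML2x WD 3 or WD 4, and the ML4x count was 2 without ML4x WD 1. The PL4x count was 0 without PL4x WD 3 or WD 4 and 1 without any of the 3 PL4x controls.

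The scion contrast that defined the members in leaves was tested in roots. edgeR called 0 of the 13 members and 0% of all 20452 root genes for a difference of response between Persian and Mexican lime. At an unadjusted p under 0.05 there was 1 member, Ciclev10027617m.g, and DESeq2 and limma-voom also called 0 members. The fitted differences of the 10 Mexican-up members ran from -1.54 to 0.63 and those of the 3 Persian-up members from 0.21 to 0.74. They had the sign of the leaf difference for 10 of the 13 members, beside 51.6% of the 18179 genes tested in both tissues. Ctrl roots under the 2 scions also gave 0 called members by edgeR, with 0 at an unadjusted p under 0.05, beside 0% of all root genes called and 790 genes at an unadjusted p under 0.05. Applied to the root table, the rule that chose the members found 1 gene, or 0.00408% of 24533, and it was not a member.

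Most members were more abundant in leaves than in roots of control trees. For 9 of the 13 members tested in both tissues the Ctrl level, as log2 of CPM plus 1, was more than 2-fold higher in leaves, beside 13.1% of genes. The median difference, leaves minus roots, was 1.34 for the members and -0.62 for all genes tested in both. Ciclev10027617m.g stood at 62.9 CPM in Ctrl leaves and 3.18 CPM in Ctrl roots, and Ciclev10016655m.g at 4.76 and 0.107 CPM. By contrast Ciclev10005251m.g was at 34.2 and 31.2 CPM, and Ciclev10009961m.g at 32.9 and 49.9 CPM. The choice of members rests on leaf levels, since L with 1 CPM added is small for a gene with little leaf RNA, so this comparison is a description. Leaves were lime and roots citrumelo, so tissue, genotype and mapping to the clementine-type gene models cannot be told apart in it.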

How the data were processed

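Raw read counts per gene, whole numbers and not normalised, were deposited by the authors for 26 leaf and 27 root libraries. Trimmomatic trimmed the reads and HTSeq made the counts, per the submitters' processing notes; the library kit was stranded and for mRNA, per the labels' protocols. No aligner, genome build or strand setting is given in the sources used here. Members came from CPM by column total. Each tissue was fitted with edgeR 4.0.16 (R 4.3.3): filterByExpr by group, TMM, 8 groups, quasi-likelihood F test, robust, with Benjamini-Hochberg adjustment over all genes tested. A call is an adjusted p under 0.05. DESeq2 1.42.0 and limma 3.58.1 (voom with quality weights) were alternatives. The common biological coefficient of variation was 0.38 in leaves and 0.371 in roots. No pair of the 64 pairs of libraries within groups was a duplicate: the smallest mean chi-square per gene was 15.6. On simulated root counts the test recovered 79% of genes changed by 1 on the log2 scale in the mean response and 93% of those changed by 2. In the scion difference these shares were 22% and 71%. Changes were planted only in genes averaging above 1 CPM, and all other genes were left unchanged, whereas 58% of real root genes were called in the mean. The shares therefore do not give the recovery for members of low root level.

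The members and lists were chosen with earlier results of these data known. Leaf genes named were, in each class, the 2 with the largest scion difference of L among those with at least 5 CPM and no overlap in 3 combinations, or in 2 where too few qualified. Root genes named were the 2 highest and 2 lowest called changes with at least 1 CPM. Genes nearest the threshold and genes called for a scion difference in leaves were named too. Lists of genes by product and cell type markers could not be measured without gene names. Within a tissue each library came from a separate tree, while leaves and roots were taken from the same trees, per the labels. Standard errors and p-values of a tissue's fit therefore measure the spread between trees.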

Additional observations from a re-analysis of the deposited data

Results flagged for a closer look

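Within groups of 4 libraries, 84 member and group pairs were compared by the gap of the highest or lowest library to the nearest of the others, and 8 lay apart. Chance gives about 1 in 20. ML2x WD 3, the leaf WD library with the fewest counts, accounts for 3 of them. It held 17.6 CPM of Ciclev10009961m.g where the others held 34.8 to 35.3, and 18.8 CPM of Ciclev10005251m.g where the others held 37.9 to 40.3. It held 32.6 CPM of another Mexican-up member, beside 21.0 to 22.1 CPM in the others. ML2x WD 1 held 6.55 CPM of a further Mexican-up member, beside 10.03 to 10.48 CPM.

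In roots, ML2x WD 4 had the fewest counts of all libraries. It held 0 CPM of Ciclev10026918m.g, beside 5.55 to 6.60 CPM in the others of its group, and 6.26 CPM of Ciclev10009961m.g, beside 21.5 to 24.1 CPM. Ciclev10005251m.g stood at 34.8 CPM in ML4x WD 1 roots, beside 1.87 to 5.59 CPM, and at 10.3 CPM in PL4x WD 2 roots, beside 1.66 to 2.54 CPM. The part of library depth in these values was not tested.

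The leaf response of Ciclev10016655m.g differed between the scions by -2.28 on the log2 scale in edgeR's fit, Persian minus Mexican lime, from the same leaf libraries that chose the gene, so that the call is no independent evidence. That of Ciclev10021946m.g differed by -1.71 in L, with every WD library on opposite sides of its controls in the 2 scions. For this gene edgeR's fit gave -1.78 ± 0.30 (SE), with an adjusted p of 0.0535, which is not a call. The same leaf libraries chose the gene, so nothing is read from that fit.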

How the results depend on the processing

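The number of genes meeting the leaf rule depended on its settings. It was 14 as described, 23 with TMM-scaled CPM (9 of the 14 members kept), 27 and 8 with 0.5 and 2 CPM added, and 47 and 3 with thresholds of 0.3 and 0.6. With single leaf libraries left out it ran from 7 to 25. Of the 14 members, 6 were kept with group medians (16 genes) and 8 without the 2 libraries of fewest counts (19 genes). No member reversed its scion difference in any setting run. L of a single combination did change sign in some settings. For a Mexican-up member, L in PL2x went from -0.42 to 0.53 without PL2x Ctrl 2. For another, L in PL4x went from -0.44 to 0.16 without PL4x Ctrl 1. The cause of these moves was not tested.

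In roots, the called members over the mean of combinations ranged from 5 to 7 with single libraries left out, and were 8 with limma-voom. In that mean limma-voom called 6927 up and 7725 down over all 20452 root genes. Limma-voom called 4 members in each of ML2x and PL2x, 2 in ML4x and 7 in PL4x; over all 20452 root genes it called 4841 up and 6099 down in ML2x, 3963 and 4241 in PL2x, 2679 and 3199 in ML4x, and 4737 and 5504 in PL4x. Without the root library of fewest counts ML2x had 1. With single libraries left out the counts ranged from 0 to 3 in ML2x, 1 to 2 in ML4x, 0 to 0 in PL2x and 0 to 3 in PL4x, and stayed at 0 for both root scion contrasts. The leaf scion difference was called for 1 member by edgeR, 2 with DESeq2's size factors, 11 with DESeq2 and 13 with limma-voom. Over all 19140 leaf genes DESeq2 called 54 with the higher response in Persian and 94 in Mexican lime, and limma-voom 276 and 338. The member count was 0 without the 2 leaf libraries of fewest counts and 2 without the 2 WD libraries of lowest slope. Both omissions were chosen after seeing the data. With single libraries left out the count was 1 to 6.

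Groups share replicate numbers, and correlations of same-numbered Ctrl and WD libraries had both signs. They ran from -0.20 to 0.34 over 11 leaf pairs, 1 of them over 0.1. In roots they ran from -0.39 to 0.35 over 12 pairs, 5 over 0.1, with PL2x pairs 1 and 3 at 0.35 and 0.34. Root pairs of different number ran from -0.48 to 0.34. With the replicate number as a block, 5 members were called in the mean root response, 0 in PL4x and 1 for the leaf scion difference. Ciclev10021073m.g was then not called in roots, at an adjusted p of 0.0698. Depth limits the shallowest libraries most, and 2 to 4 libraries per group limit all group values.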
